A study of Homo sapiens with 2 samples.

Results

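The glycolysis, pyruvate and gluconeogenesis genes described here are 37 genes that carry glucose into the cell, turn it into pyruvate and lactate, pass pyruvate to the mitochondrion, or rebuild glucose. They were chosen by name, and all 37 were found among the 26225 gene names present in both deposited tables. The study sequenced the RNA of PLC, an established line of human liver cancer cells, either with genotype WT and the empty vector (EV) or stably overexpressing PRSS35, a secreted serine protease. Each condition has 1 library and no further treatment is labelled, and the labels give a growth medium with 25 mM glucose, 4 mM glutamine, 1 mM pyruvate and 10% serum for both. With 1 library per condition no difference below has a replicate check, no p-value is given, and the condition cannot be told apart from the culture dish. As each value comes from bulk RNA, fewer cells that express a gene and less RNA per cell cannot be told apart.

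Glycolysis splits glucose in an upper part that spends ATP and yields triose phosphates, and a lower part that recovers ATP and ends in pyruvate. Pyruvate is then reduced to lactate by lactate dehydrogenase, or oxidised in the mitochondrion by the pyruvate dehydrogenase complex, which the PDK kinases switch off. Liver is also the main site of gluconeogenesis, which reverses the path through pyruvate carboxylase, PEPCK, fructose bisphosphatase and glucose-6-phosphatase. Several steps have a liver isoenzyme and a more widespread one, and many of these genes are known targets of the hypoxia-inducible factors.

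The level of each gene is its FPKM, a fragment count scaled by transcript length and sequencing depth, and comes with the lower and upper bound from Cufflinks. These bounds, called the interval below, hold the error of counting and assigning fragments inside 1 library, but no variation between cultures. A log2 change compares PRSS35 with EV after 1 FPKM was added to each level, which makes changes of low genes look smaller than they are. Genes whose levels averaged at least 1 FPKM were taken as expressed, and those that differed by 2-fold were called higher or lower. The transgene was at 0.643 FPKM (interval 0.445 to 0.841) in EV and 1836 (interval 1759 to 1912) in PRSS35, as the labels require. Over 190 low loci, the FPKM worth of 1 fragment was 0.999 times as large in PRSS35 as in EV, which puts the depth of the libraries at the same level. Of 12 hepatocyte markers 11 were expressed, but ALB was at only 4.05 FPKM in EV and 5.21 in PRSS35 and TTR at 1.56 and 1.61, and FGB was not expressed. Of these 11 markers 7 had a higher value in PRSS35, 6 of them with separate intervals, and 2 were lower with separate intervals. Among all expressed genes 60.2% had a higher value, and 25.2% were higher and 15.5% lower with separate intervals. SERPINA1 had a log2 change of 0.75, TF of 0.63 and AHSG of 0.58, while APOA1 was at -0.22 and KRT18 at -0.26. Of the markers of other cell types, 2 of 6 leukocyte genes, 1 of 6 fibroblast and stellate genes and 0 of 4 endothelial genes were expressed. The leukocyte genes were LYZ, at 94.01 FPKM in EV and 103.7 in PRSS35 with separate intervals, and CD68, at 297.3 and 277.9 on a row joined with MPDU1, whereas PTPRC, CD3E and MS4A1 were listed at 0 in both libraries. The stromal gene was PDGFRB, at 1.02 and 1.27 FPKM, whereas COL3A1, DCN and LUM were listed at 0. The part of these markers in the results below was not tested.

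Of the 37 genes, 31 were expressed, and 26 of these had a higher FPKM in PRSS35 cells and 5 a lower one. The only member past 2-fold was PDK1, which was lower, against 2.48% of all 11115 expressed genes that were 2-fold lower and 2.73% that were 2-fold higher. At smaller sizes, PGK1 and G6PC were the highest and GPI and PDK1 the lowest relative to EV, and each of these 4 genes differed by more than 1.5-fold. The median log2 change of the expressed members was 0.20, beside 0.06 for all expressed genes, and 83.9% of the members had a higher value beside 60.2% of all expressed genes. When the changes were centred on the median gene, 20 of the 31 members remained above 0. By construction, this centring leaves about as many of all expressed genes above 0 as below it.

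Intervals were separate between EV and PRSS35 for 13 members that were higher in PRSS35 cells (41.9% of the expressed members) and for 2 that were lower (6.45%). Among all expressed genes the corresponding shares were 25.2% and 15.5%. Abundant genes have narrow intervals, and their part in these shares was not tested. The 13 genes were SLC2A3, HK1, PFKP, ALDOC, PGK1, PGAM1, PKM, LDHA, PDHA1, PDK2, PCK1, PCK2 and G6PC, and the 2 were GPI and PDK1. The number of fragments that the bounds imply, which assignment error also lowers, ran against the FPKM for 3 of these 15 genes, PGAM1, PDK1 and PDK2, and for PFKL and PFKFB4 among the rest. Cufflinks assembled transcripts for each library separately, and a gene whose locus was assembled can take a different structure in each. The 10 expressed members that kept the annotated locus in both libraries had a median log2 change of 0.23, with 9 of them higher and 0 past 2-fold. Of all 2382 expressed genes with the annotated locus in both, 1553 were higher, with a median of 0.08. Among these 2382 genes 17 were 2-fold higher and 15 were 2-fold lower. The 18 members assembled in both libraries had a median of 0.19, beside 0.045 for all 6491 such genes. Of these 6491 genes 189 were 2-fold higher and 162 were 2-fold lower.

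**Figure D1:**
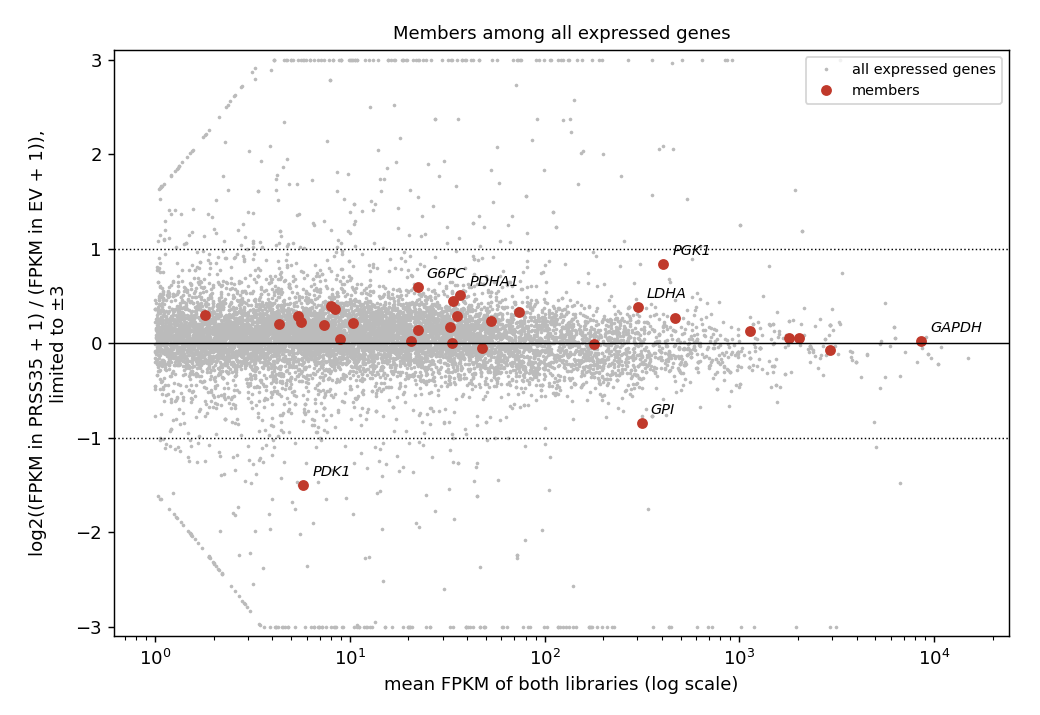
The log2 change between PRSS35 and EV is plotted against the mean FPKM of both libraries (log axis) for the 11115 expressed genes (grey, values beyond 3 in size drawn at the edge) and the 31 expressed members (red). Dotted lines mark 2-fold, which PDK1 alone of the members passes, at -1.50.

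The 4 genes with the largest changes are shown here with the 250 bases before their transcription start, taken from RefSeq on GRCh38.p14 (the expression files use hg19). The ACGTG form of the core of the hypoxia response element, or its reverse complement CACGT, is in capitals. The GCGTG form of the core was neither marked nor counted. The letters ACGTG and CACGT are also part of the E-box CACGTG that MYC and ChREBP bind, so a match is a description of the window only. Where RefSeq lists several starts, the one furthest upstream is shown.

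PGK1, chrX:78103998-78104247, plus strand: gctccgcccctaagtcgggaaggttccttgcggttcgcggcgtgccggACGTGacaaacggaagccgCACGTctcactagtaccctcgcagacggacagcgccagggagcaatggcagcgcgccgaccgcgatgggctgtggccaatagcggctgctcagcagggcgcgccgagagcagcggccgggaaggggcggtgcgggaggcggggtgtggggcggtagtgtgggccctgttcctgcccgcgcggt

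G6PC (G6PC1 in RefSeq), chr17:42900549-42900798, plus strand: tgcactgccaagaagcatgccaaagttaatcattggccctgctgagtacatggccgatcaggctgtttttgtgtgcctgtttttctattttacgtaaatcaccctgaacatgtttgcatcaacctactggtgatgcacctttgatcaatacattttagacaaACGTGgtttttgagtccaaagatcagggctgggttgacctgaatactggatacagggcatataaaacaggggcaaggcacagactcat

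GPI, chr19:34364742-34364991, plus strand: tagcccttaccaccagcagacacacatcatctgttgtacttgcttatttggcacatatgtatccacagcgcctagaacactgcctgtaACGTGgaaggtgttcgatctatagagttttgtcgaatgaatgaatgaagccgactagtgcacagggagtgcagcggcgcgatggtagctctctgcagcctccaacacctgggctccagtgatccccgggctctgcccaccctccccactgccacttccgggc

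PDK1, chr2:172555123-172555372, plus strand: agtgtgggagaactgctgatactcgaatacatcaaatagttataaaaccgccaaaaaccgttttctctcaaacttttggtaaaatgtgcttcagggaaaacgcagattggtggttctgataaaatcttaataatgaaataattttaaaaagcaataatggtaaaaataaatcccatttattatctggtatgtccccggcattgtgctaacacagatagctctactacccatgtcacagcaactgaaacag

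The PGK1 window holds 2 matches, 202 and 183 bases before the start, while the G6PC window holds 1 at 88 bases and the GPI window 1 at 162 bases. The PDK1 window shown holds 0, although the window of its second RefSeq start has a match. Of the 37 members 33 have an entry in the RefSeq promoter table, and in the window of the first start 13 of these (39.4%) hold a match on either strand, beside 20.7% of 15843 protein-coding genes. With any listed start counted, 20 of the 33 members (60.6%) hold one, beside 25.3% of protein-coding genes. Each further start can only raise this share, and the genes were not matched for their number of starts. HK1 and PFKM, for example, list 7 starts each, of which PFKM has a match at 1 and HK1 at 0. Expressed members with a match at any start had a median log2 change of 0.20 (18 genes) and those without one 0.18 (10 genes). The lower members GPI, ALDOA and PDK1 carry a match at a listed start, as do members that were higher. The part of the match in these changes was not tested.

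Glucose enters through facilitative transporters of the SLC2A family. SLC2A3, which encodes the high-affinity transporter GLUT3, had a level of 32.03 FPKM (interval 31.0 to 33.1) in EV and 39.2 (interval 38.0 to 40.4) in PRSS35, a log2 change of 0.28 with intervals that did not overlap. SLC2A1, which encodes the widely expressed GLUT1, was at 21.3 (interval 20.0 to 22.6) in EV and 23.5 (interval 22.1 to 24.8) in PRSS35, with overlapping intervals. SLC2A2, which encodes the low-affinity transporter typical of hepatocytes, was nearly absent, with 0.110 FPKM in EV and 0.146 in PRSS35, values that rest on about 7.74 and 11.2 fragments as implied by the bounds. SLC2A3 thus made up 59.9% of the summed FPKM of the 3 transporters in EV and 62.4% in PRSS35, and SLC2A2 0.205% and 0.233%. Lactate leaves through the monocarboxylate transporters. SLC16A1, which encodes MCT1, was at 8.78 FPKM in EV and 9.05 in PRSS35. SLC16A3, the exporter typical of strongly glycolytic cells, was at 0.531 and 0.515 with a lower bound of 0 in PRSS35. SLC16A3 has no value when rows joined with other gene names are left out, so this comparison cannot be assigned to it alone. All 3 expressed transport genes had a higher value in PRSS35 cells, but SLC16A1 turned below 0 with centring on the median gene or scaling by the upper quartile.

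**Figure D2:**
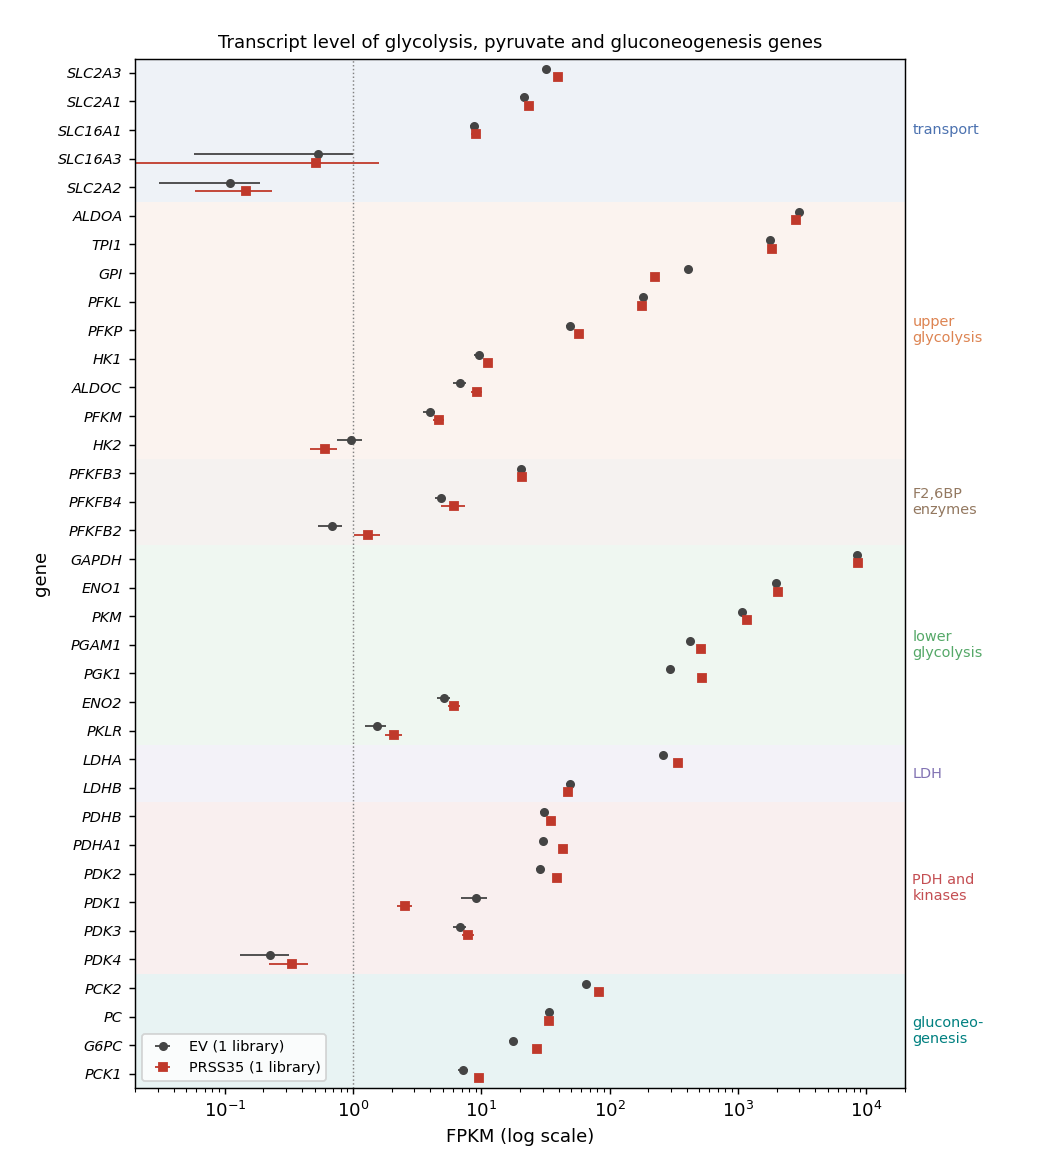
FPKM of the 36 members with a value above 0 is plotted on a log axis in the EV library (grey circles) and the PRSS35 library (red squares), with Cufflinks intervals as lines, and genes grouped by role. The interval of ALDOA in PRSS35 is not drawn, the lower bound of 0 of SLC16A3 is drawn at the axis edge, and the dotted line marks 1 FPKM. Levels span from 0.110 FPKM for SLC2A2 in EV to 8670 for GAPDH in PRSS35.

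Hexokinases trap glucose as glucose-6-phosphate. HK1, the form of most tissues, was at 9.56 FPKM (interval 8.83 to 10.3) in EV and 11.3 (interval 10.5 to 12.1) in PRSS35, a log2 change of 0.22. HK2, the form that many tumours induce, did not pass the expression filter and was at 0.961 (interval 0.750 to 1.17) in EV and 0.607 (interval 0.459 to 0.755) in PRSS35. The intervals of HK2 overlapped by a narrow margin, and its share of HK1 and HK2 together was 9.13% in EV and 5.10% in PRSS35. HKDC1, a further hexokinase family gene, was at 10.3 FPKM in both libraries and so at the level of HK1.

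GPI, the isomerase that makes fructose-6-phosphate, stood apart in the upper part of the pathway. Its FPKM was 405.7 (interval 392.4 to 419.1) in EV and 225.2 (interval 215.5 to 234.9) in PRSS35. The EV level was 1.80 times the PRSS35 level, a log2 change of -0.85 with an interval from -0.92 to -0.77. GPI ranked 433 among named genes in EV and 771 in PRSS35. Its locus lies on chromosome 19 of hg19 from 34855645 to 34893318 and was assembled in both libraries. An unnamed locus 4843 bases upstream, over exons that GENCODE gives to GPI, was at 126.6 FPKM (interval 50.2 to 202.9) over 197 bases in EV and at 3.15 (interval 1.94 to 4.37) over 551 bases in PRSS35. These are different loci, whose bounds imply 11 fragments in EV and 26.9 in PRSS35, so their FPKM cannot be compared with each other. The part of its assembly in the GPI difference was not tested.

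Phosphofructokinase commits fructose-6-phosphate to glycolysis. Its liver form PFKL dominated, at 180.7 FPKM (interval 172.6 to 188.7) in EV and 179.1 (interval 173.0 to 185.2) in PRSS35, which differed by less than their intervals. The platelet form PFKP was at 48.6 (interval 46.0 to 51.3) in EV and 57.3 (interval 54.4 to 60.3) in PRSS35, with intervals that did not overlap, and the muscle form PFKM at 3.94 and 4.67 with intervals that did. PFKL made up 77.5% of the 3 forms in EV and 74.3% in PRSS35. The PFKFB enzymes make and remove fructose bisphosphate signals that activate phosphofructokinase. Among them PFKFB3 was at 20.4 FPKM in EV and 20.6 in PRSS35, PFKFB4 at 4.81 and 6.10, and PFKFB2 at 0.680 (interval 0.535 to 0.825) and 1.31 (interval 1.02 to 1.61). PFKFB2 fell just short of the expression filter, and its intervals did not overlap.

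Aldolase and triose phosphate isomerase complete the upper part and were among the most abundant members. ALDOA was at 2995 FPKM (interval 2871 to 3120) in EV and 2848 in PRSS35, where Cufflinks gave bounds from 0 to 41640 that carry no information on its error. TPI1 was at 1772 in EV and 1844 in PRSS35, with overlapping intervals. ALDOC, the brain-type aldolase, was a minor form with 6.78 FPKM (interval 5.98 to 7.57) in EV and 9.25 (interval 8.32 to 10.2) in PRSS35. Its log2 change of 0.40 was the highest of the upper part, and it supplied 0.226% of the aldolase FPKM in EV and 0.324% in PRSS35. Of the 8 expressed genes of the upper part 5 were higher and GPI, PFKL and ALDOA lower, and TPI1 also turned below 0 with centring or upper quartile scaling.

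All 7 genes of the lower part had a higher value in PRSS35 cells, with a median log2 change of 0.23, although GAPDH and ENO1 turned below 0 with centring or upper quartile scaling. PGK1, the first ATP-forming enzyme, accounted for the largest change. Its FPKM was 292.8 (interval 280.0 to 305.6) in EV and 523.0 (interval 505.8 to 540.3) in PRSS35, or 1.79 times as high, a log2 change of 0.84 with an interval from 0.76 to 0.91. The gene, on chromosome X of hg19 from 77359666 to 77382324, went from rank 596 to rank 327 among named genes. Its locus was assembled in both libraries with the same ends, and the adjacent TAF9B was at 3.50 FPKM in EV and is listed at 0 in PRSS35. The TAF9B locus lies 209 bases from PGK1 in EV, where it overlaps 1 GENCODE exon of PGK1, and 2921 bases away in PRSS35, where it overlaps 0. The part of this assembly in the PGK1 difference was not tested.

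PGAM1, the mutase that follows PGK1, was at 425.3 FPKM (interval 419.1 to 431.5) in EV and 512.2 (interval 490.0 to 534.4) in PRSS35, a log2 change of 0.27. The bounds of PGAM1 imply 18800 fragments in EV and 2130 in PRSS35, against the direction of its FPKM. For GAPDH, at a far higher level, the bounds imply 2330 in both libraries, so such numbers need not be direct counts. PKM, the pyruvate kinase of most tissues and of tumours, was at 1080 (interval 1034 to 1125) in EV and 1183 (interval 1133 to 1232) in PRSS35, a log2 change of 0.13. Neither gene's intervals overlapped, but both changes were well below that of PGK1. GAPDH, often used as a loading reference, was the most abundant member at 8515 FPKM (interval 8162 to 8867) in EV and 8670 (interval 8311 to 9029) in PRSS35, and ENO1 was at 1985 and 2066, both with overlapping intervals. GAPDH alone made up 46.4% of the summed FPKM of the 37 members in EV and 45.8% in PRSS35. Processed copies of GAPDH are numerous, with 65 pseudogenes named after it in GENCODE and 13 named after PGAM1, so shared reads make these levels less certain.

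The minor isoenzymes of the lower part stayed minor. ENO2, the neuronal enolase, was at 5.08 FPKM in EV and 6.12 in PRSS35, and PKLR, the liver and red cell pyruvate kinase, at 1.52 and 2.09, all with overlapping intervals. ENO1 made up 99.7% of the FPKM of ENO1 and ENO2 together in both libraries. This share leaves out ENO3, which is treated below with the other isoenzymes. The EV level of ENO3, 15.2 FPKM, exceeded that of ENO2, whereas its PRSS35 value of 0 can be a failed estimate. PKM supplied 99.9% of pyruvate kinase FPKM in EV and 99.8% in PRSS35. The liver form was thus the minor one for pyruvate kinase, with 0.141% in EV and 0.177% in PRSS35, and the major one for phosphofructokinase.

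**Figure D3:**
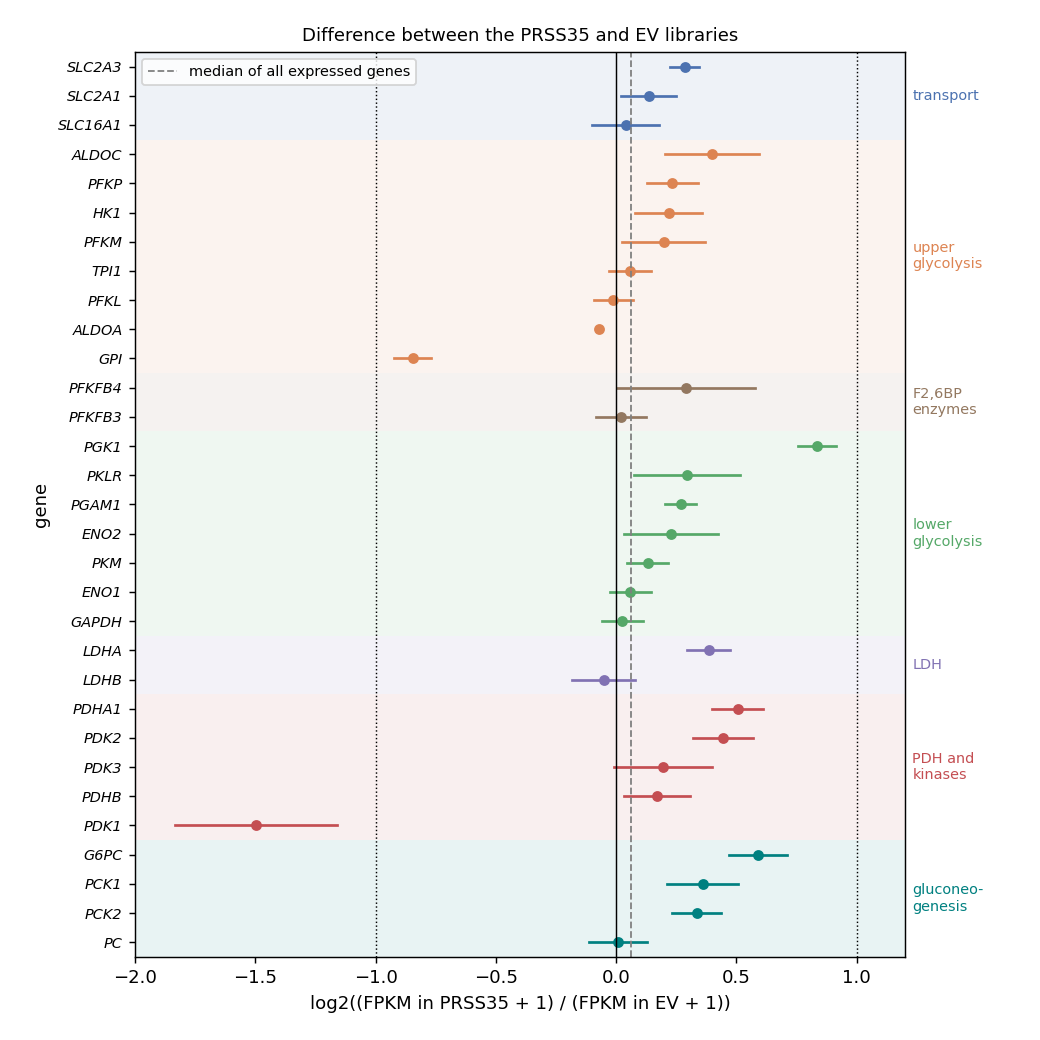
The log2 change between PRSS35 and EV (dots) with the interval that follows from both libraries' Cufflinks bounds (lines) is plotted for the 31 expressed members, grouped by role and sorted within each group. The dashed line is the median of all expressed genes at 0.06 and dotted lines mark 2-fold. All dots of the lower glycolysis and gluconeogenesis groups lie above 0 (GAPDH, ENO1 and PC fall below it with centring or upper quartile scaling), and GPI and PDK1 lie far to the left, while ALDOA is drawn without an interval.

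Pyruvate is turned into lactate by lactate dehydrogenase, in which the LDHA subunit favours lactate and the LDHB subunit pyruvate. LDHA was at 260.4 FPKM (interval 248.8 to 271.9) in EV and 340.0 (interval 325.2 to 354.8) in PRSS35, a log2 change of 0.38. LDHB was at 48.7 (interval 45.5 to 51.9) in EV and 46.9 (interval 43.8 to 50.0) in PRSS35, and its intervals overlapped. The share of LDHA in both subunits was 84.2% in EV and 87.9% in PRSS35. This share is formed within each library and does not depend on how the libraries are scaled to each other.

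The strongest contrast among the members lay in the PDK kinases, which phosphorylate and inactivate pyruvate dehydrogenase. PDK1, a kinase known as a hypoxia target, was at 9.02 FPKM (interval 6.89 to 11.2) in EV and 2.54 (interval 2.201 to 2.89) in PRSS35, a log2 change of -1.50 with an interval from -1.84 to -1.16. PDK2, the most abundant of the kinases, was at 28.5 (interval 26.7 to 30.2) in EV and 39.1 (interval 36.6 to 41.6) in PRSS35, a log2 change of 0.44. In FPKM these kinases differed in opposite directions, each with intervals that did not overlap, but the implied fragments given below run against both. PDK3 was at 6.78 FPKM in EV and 7.90 in PRSS35, and PDK4, the starvation-induced form, at 0.223 and 0.334, below the expression filter. PDK1 made up 20.3% of the FPKM of the 4 kinases in EV and 5.10% in PRSS35, and PDK2 64.0% and 78.4%.

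The PDK1 value in EV had a wide interval. The half-width of its interval was 23.6% of the FPKM in EV and 13.5% in PRSS35, although the EV level was the higher one. At the same depth, these bounds imply 71.7 fragments in EV and 219 in PRSS35, which runs against the direction of the FPKM, the 2-fold call and the PDK1 share. For PDK2 they imply 1080 and 996, also against its FPKM. The locus, on chromosome 2 of hg19 from 173420019 to 173490351 in EV, was assembled from the reads in both libraries. An unnamed locus 2210 bases beyond its end in PRSS35 was at 10.3 FPKM (interval 4.11 to 16.6) over 285 bases, and one 2329 bases beyond it in EV at 0.540. Neither overlaps an exon of PDK1 in GENCODE. The part of assembly and of fragment assignment in the PDK1 difference was not tested. With a pseudocount of 5 FPKM the log2 change was -0.89, and PDK1 was no longer past 2-fold.

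The subunits of pyruvate dehydrogenase were both higher in PRSS35 cells. PDHA1, the catalytic alpha subunit that the PDK kinases phosphorylate, was at 30.4 FPKM (interval 28.7 to 32.1) in EV and 43.6 (interval 41.3 to 45.8) in PRSS35, a log2 change of 0.50. PDHB, the beta subunit, was at 30.7 (interval 28.5 to 32.9) and 34.7 (interval 32.3 to 37.1), with intervals that overlapped. The subunits thus lay within each other's intervals in EV, while in PRSS35 their intervals were separate.

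Gluconeogenesis had the highest median of the role groups, 0.35 over its 4 expressed genes, and all 4 had a higher value in PRSS35 cells, although PC turned below 0 with centring or upper quartile scaling. G6PC, a catalytic subunit of glucose-6-phosphatase that releases free glucose, had a log2 change of 0.59. It was at 17.6 FPKM (interval 16.5 to 18.8) in EV and 27.0 (interval 25.5 to 28.6) in PRSS35. Its paralog G6PC3, which is not a member, was at 137.9 FPKM (interval 131.6 to 144.2) in EV. In PRSS35, G6PC3 was lower with a separate interval, at 120.7 (interval 115.2 to 126.2), and still above G6PC. PCK1, the cytosolic PEPCK under hormonal control in liver, was at 7.23 (interval 6.61 to 7.86) in EV and 9.56 (interval 8.84 to 10.3) in PRSS35, a log2 change of 0.36. PCK2, the mitochondrial PEPCK, was at 65.3 (interval 61.9 to 68.7) in EV and 82.6 (interval 78.5 to 86.7) in PRSS35, a log2 change of 0.33. The intervals of G6PC, PCK1 and PCK2 did not overlap. The hepatocyte markers SERPINA1, TF and AHSG were higher by similar or larger amounts. However, 4 of the 11 expressed hepatocyte markers were lower, APOA1 and KRT18 with separate intervals. Whether these differences share a source was not tested. PC, which makes oxaloacetate from pyruvate, differed by less than its intervals, at 33.4 FPKM in EV and 33.5 in PRSS35.

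FBP1, the fructose bisphosphatase that gluconeogenesis needs, is listed at 0 in both libraries, as is its paralog FBP2. No fold was computed for it. PCK2 made up 90.0% of PEPCK FPKM in EV and 89.6% in PRSS35, so the PCK1 share was only 0.43 percentage points higher in PRSS35.

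**Figure D4:**
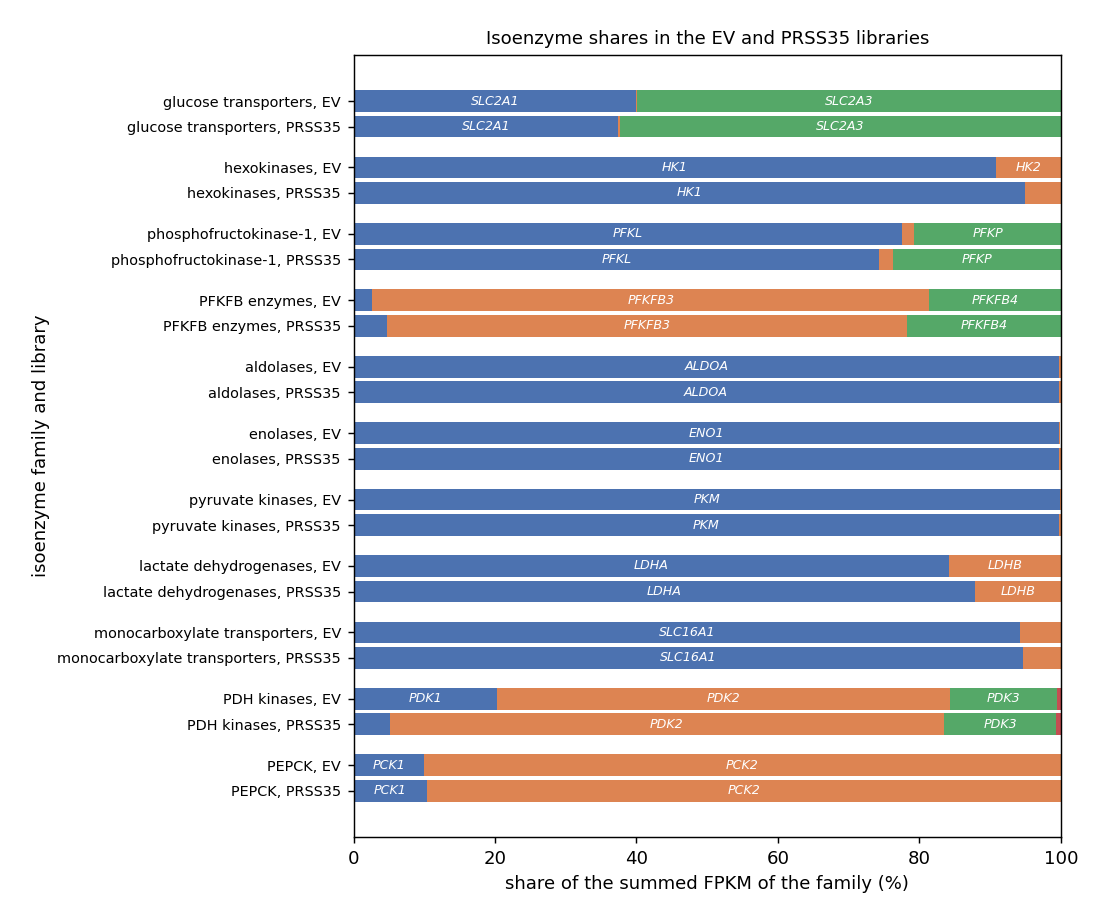
Bars show the percent of the summed FPKM of each isoenzyme family that each member supplied, with 1 bar for EV and 1 for PRSS35 and the same colour and order of members in both (segments too narrow for a name are left blank). The families hold members only, so HKDC1 is left out of the hexokinases and ENO3 of the enolases. The shares move by at most 5.2 points between the libraries except in the PDH kinases, where PDK1 goes from 20.3% to 5.10% and PDK2 from 64.0% to 78.4%. The fragments implied by the bounds of PDK1 and PDK2 run against the direction of their FPKM.

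For the neighbouring pathways, counts past 2-fold stand beside 2.73% of all expressed genes that were 2-fold higher and 2.48% that were 2-fold lower. Counts of higher values in these pathways stand beside the 60.2% of all expressed genes that had a higher value. In the pentose phosphate pathway, which branches off at glucose-6-phosphate, 0 of 8 expressed genes passed 2-fold, and the median log2 change was 0.16. PGLS, whose row in EV is joined with FAM129C, was at 369.7 FPKM in EV and 323.3 in PRSS35, whereas TALDO1 was at 162.1 and 205.9. Of the 10 expressed glycogen genes 8 had a higher value and 0 passed 2-fold, with PGM1, the mutase that links glycogen to glycolysis, at 58.1 FPKM in EV and 92.0 in PRSS35, and PYGB at 53.9 and 52.5. Of 17 citric acid cycle genes 13 were higher and 4 lower, with a median of 0.08 and 0 past 2-fold, and its most abundant members MDH2 and IDH3G were at 840.2 and 184.6 FPKM in EV and 782.2 and 157.4 in PRSS35.

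Among 8 expressed genes of mitochondrial pyruvate entry and the dehydrogenase partners, 5 were higher, 3 were lower and 0 passed 2-fold. The carrier subunit MPC2 was at 72.5 FPKM in EV and 95.7 in PRSS35, with intervals that did not overlap, and its partner MPC1 at 26.4 and 28.3, with intervals that did. For fructose, mannose and galactose entry 7 of 10 expressed genes were higher and 0 passed 2-fold. The most abundant of these, GALK1 and AKR1B1, were lower in PRSS35 cells, at 361.3 and 257.8 FPKM in EV and 278.8 and 221.7 in PRSS35.

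Of 15 expressed other isoenzymes and partners 7 were higher and 8 lower, with a median log2 change of 0.00. Only ENO3, the muscle enolase, passed 2-fold and was lower, beside 2.48% of all expressed genes that were 2-fold lower. The EV library lists it at 15.2 FPKM and the PRSS35 library at 0, from a locus assembled in both libraries, and a 0 of this kind can be a failed estimate. BSG, the chaperone of the lactate transporters, was at 883.9 FPKM in EV and 831.6 in PRSS35. The value of GAPDHS, 582.8 and 541.1 FPKM, belongs to a locus joined with TMEM147 and cannot be assigned to it.

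Among the transcriptional regulators of these pathways 14 of 16 expressed genes had a higher value, beside 60.2% of all expressed genes, with a median log2 change of 0.18. The hypoxia-inducible factor HIF1A was at 4.70 FPKM in EV and 5.04 in PRSS35, EPAS1 at 52.0 and 54.5, and MLXIPL, which encodes ChREBP, at 5.07 and 5.90, all with overlapping intervals. MYC was at 33.3 FPKM (interval 31.9 to 34.7) in EV and 39.6 (interval 37.3 to 41.8) in PRSS35. ESRRA and CREB1 passed 2-fold and were higher, beside 2.73% of all expressed genes that were 2-fold higher. ESRRA had 84.2 FPKM in PRSS35 and is listed as 0 in EV, again possibly a failed estimate, and CREB1 had 0.605 FPKM over the annotated locus of EV but 3.13 over a locus assembled in PRSS35. The rows with the highest level were those of CRTC2, joined with SLC39A1 and so not assignable to it, at 199.3 FPKM in EV and 216.2 in PRSS35, and of CEBPA, a hepatocyte factor, at 95.7 and 107.3.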

How the data were processed

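Each condition, PLC with EV or with PRSS35, was sequenced as 1 RNA library. The authors aligned reads to hg19 with TopHat2 2.1.0, assembled and estimated transcripts per library with Cufflinks 2.2.1 (the submitters' notes name Cuffdiff 2.2.1), and deposited FPKM per locus with its lower and upper bound. The annotation release was not given in the sources used here. FPKM is no count, so no count model was used.

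FPKM was summed over rows that share a gene name, and a row with several joined names counted for each. Haplotype and unplaced contigs and 2 rows whose estimate had failed were left out. Log2 changes used a pseudocount of 1 FPKM, a minimum mean of 1 FPKM and a 2-fold threshold. Fragments behind a value were taken as the squared ratio of FPKM to its SD, where the bounds lie 2 SD away. The result need not be a direct count, as in EV it was 2330 for GAPDH at 8515 FPKM but 3680 for SLC2A3 at 32.03. Depth was compared over loci annotated in both libraries with 5 to 200 such fragments within 0.01 of a whole number. The code for the 2-fold calls was tested on simulated data, which gives no error rate for these libraries. All 37 members are named, and of each neighbouring pathway the genes past 2-fold and the 2 with the highest mean FPKM, whereas other named genes were chosen after their values were seen. Some genes of the neighbouring pathways are not reported here. The members and lists were chosen with earlier results of these data known. Python 3.11.15, numpy 2.4.6, pandas 2.3.3 and matplotlib 3.10.9 were used.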

Additional observations from a re-analysis of the deposited data

How the results depend on the processing

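With 1 library per condition no variation between cultures was measured, and at under 1 FPKM the members SLC2A2, SLC16A3, HK2 and PDK4 rest on few fragments. No paired analysis was possible because there is only 1 library in each group. The median log2 change of the members was 0.20, and between 0.13 and 0.24 with pseudocounts of 0.1 and 5 FPKM, upper quartile scaling, centring on the median change, joined rows left out, the highest row per name, no filter, a mean FPKM of at least 5, and the annotated loci in both libraries, the last chosen after seeing the data. With FPKM scaled to the total of all loci it was 0.83, when the median of all expressed genes moved from 0.06 to 0.68, since unnamed loci hold a larger sum in EV. Under this scaling 7 members were 2-fold higher in place of 0, 0 were 2-fold lower in place of 1, and 28 in place of 13 had separate intervals with a higher value. PDK1 then had a log2 change of -0.92 and GPI of -0.14, and 5 members turned from a lower to a higher value. Over all expressed genes, the numbers 2-fold higher and lower went from 303 and 276 to 1273 and 180 with this scaling, while a pseudocount of 5 FPKM gave 192 and 162, a threshold of 1.5-fold 581 and 475, and leaving out joined rows 183 and 184. At 1.5-fold 2 members were higher and 2 lower. With a pseudocount of 5 FPKM, and among members with the annotated locus in both libraries, 0 were 2-fold lower, since PDK1 was then at -0.89 or left out. SLC16A3 has no value when joined rows are left out. Upper quartile scaling turned the sign of 6 members and centring that of 7, all with main changes of at most 0.06 in size, as both lower every change by about the 0.06 of the median gene.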
